A study of Mus musculus with 9 samples.

Results

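I8 was the smallest but one of the 8 interneuron clusters in a single-nucleus RNA sequencing atlas of cholinergic neurons of the adult mouse spinal cord. Its members were the nuclei that carried the name I8 in the deposited annotation, 329 of 16042 cholinergic nuclei (2.05%) and 329 of 5375 interneuron nuclei (6.12%). Clusters I1 to I7, with 5046 nuclei, served as the comparison. The 12 mice were 8 weeks old and of strain Chat-IRES-Cre::Sun1-sfGFP, with 1 wild-type and 1 modified copy at both loci (Chat-iCre and SUN-SfGFP). Cre made from the *Chat* gene switches on a green fluorescent protein of the nuclear envelope for good, so that a sorted nucleus had Cre at some time, in the adult or before. Spinal cords from pools of 4 mice were cut into cervical, thoracic and lumbar/sacral parts, and GFP+ nuclei of each part were sorted and sequenced. Replicate 1 pooled 2 males and 2 females, replicate 2 was of males and replicate 3 of females, which gave 9 libraries, 3 for each region. The 9 libraries thus come from 3 pools, 3 libraries from each, and the spread between libraries is the error used throughout. The authors clustered the nuclei after the 3 regions had been integrated, and they alone drew the borders of I8.

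Cholinergic interneurons lie around the central canal and in the intermediate zone, and the best known supply the C boutons on motor neurons. *Pax2* is a transcription factor of many inhibitory interneuron lineages of the cord. Reelin, the secreted matrix protein made from *Reln*, guides neuronal positioning in development and acts on synapses in the adult, while *Piezo2* encodes a mechanically gated channel known from touch and proprioceptive sensory neurons. A neuron releases glycine with the help of the membrane transporter GlyT2 (*Slc6a5*), and acetylcholine with choline acetyltransferase (*Chat*) and the choline transporter (*Slc5a7*).

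I8 nuclei were unevenly spread over the libraries, with 83, 1 and 16 in cervical replicates 1, 2 and 3, 21, 39 and 10 in the thoracic ones and 72, 41 and 46 in the lumbar/sacral ones. Levels are given for the 8 libraries with at least 10 I8 nuclei (328 nuclei), as CPM, the counts of a gene in the summed I8 nuclei of a library scaled to a total of 1000000. These counts had been corrected for depth by the authors, so that the median total per nucleus, 7398 in I8 and 6930 in I1 to I7, is not the sequencing depth. I8 nuclei had a median of 3058 genes and I1 to I7 of 2728, and the I8 sums held 88148 to 605781 counts. Of all cholinergic nuclei 66 shared a barcode with a nucleus of another library, none of them in I8 (0 of 329 nuclei). Scrublet, run here on the corrected counts, marked 4 of 329 I8 nuclei as doublets (1.22%) and 0.436% of I1 to I7.

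2 libraries went against their labels in genes of the Hox clusters, which mark position along the cord. *Hoxc5* over all cholinergic nuclei was 25.4 and 22.5 CPM in cervical replicates 1 and 3 but 73.3 in the library labelled cervical replicate 2, and 85.3 and 84.2 in thoracic replicates 1 and 3 but 13.9 in the library labelled thoracic replicate 2. *Hoxa9* showed the same order, with 0.412 and 0.213 against 9.68 CPM, and 9.35 and 9.04 against 0.507. *Hoxd11* was found in the lumbar/sacral libraries alone, at 27.3, 31.0 and 23.0 CPM. Libraries were kept as labelled, and regional results that rest on the library labelled thoracic replicate 2 are given with and without it. The comparison of male and female pools could not be run without it. Lumbar/sacral libraries were set against the average of the cervical and the thoracic mean, which rests on those labels, and also against all rostral libraries as 1 group, which does not. The share of *Malat1*, a nuclear noncoding RNA, also split the libraries, at 3.03 to 3.4% of counts in cervical 1 and 3, thoracic 1 and lumbar/sacral 1, and 8.30 to 12.4% in the other 5.

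The 3 genes that define I8 were found in nearly every nucleus. *Reln* (chr5:21884454-22344702 of GRCm38, minus strand) and *Piezo2* had a count in 329 of 329 nuclei and *Mpped2*, a metallophosphoesterase gene shared with the other interneurons, in 318 (96.7%). All 3 were present and *Pax2* was not in 304 nuclei (92.4%). The *Reln* level was 1905 and 2171 CPM in the cervical libraries, 1838, 1602 and 1497 in the thoracic libraries and 2027, 1625 and 1618 in the lumbar/sacral libraries, a mean of 1786 ± 237 CPM (SD, n = 8), while I1 to I7 averaged 3.71 to 68.3, with I7 highest. No I8 library came near that range, and the next highest of the other 20 clusters, V5, stood at 169 CPM. Per nucleus the *Reln* count had a median of 12 and a lowest value of 2. For comparison 7.07% of I1 to I7 nuclei and 11.9% of motor neuron nuclei had a *Reln* count (median total 7448 in motor neurons).

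*Piezo2* and *Mpped2* were graded rather than private. *Piezo2* ran from 1339.8 to 1819.6 CPM in I8, a mean of 1515 ± 178, but averaged 861 in I7 and 749 in I1, and at most 40.0 in the remaining 5. *Mpped2* averaged 766 ± 171 CPM in I8 and 109 to 388 in I1 to I7, and exceeded the summed I1 to I7 by 1 or more (log2) in 7 of 8 libraries. *Pax2*, the transcription factor of the inhibitory lineages, was at 11.6 and 18.5 CPM in the cervical libraries, 0, 8.08 and 22.7 in the thoracic libraries and 8.63, 3.32 and 3.66 in the lumbar/sacral libraries. Its mean of 9.55 ± 7.79 CPM lay under the 101 to 380 of I1 to I7, and 4.26% of I8 nuclei had a count, against 3.0% of motor neurons, which should lack it. The share in I8 is therefore at the background. These genes were among those the cluster was drawn from, so that their levels describe I8 and do not test its label.

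**Figure D1:**
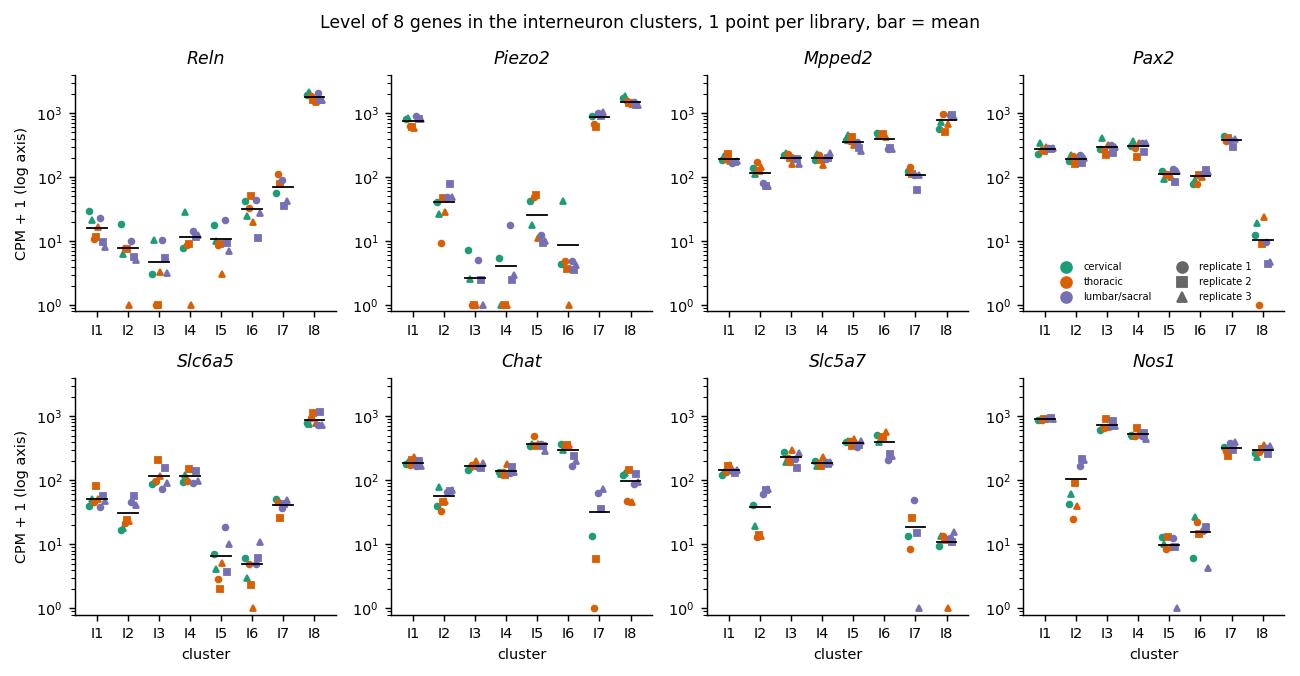
Level of 8 genes in interneuron clusters I1 to I8, as CPM + 1 on a log axis, with 1 point per library of at least 10 nuclei and a bar at the mean (green cervical, orange thoracic, purple lumbar/sacral; circle, square and triangle for replicates 1, 2 and 3). *Reln* and *Slc6a5* stand far above I1 to I7 in all 8 libraries of I8, *Pax2* and *Slc5a7* lie at the bottom, and *Chat* sits between I2 and I4.

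I8 held the gene of the glycine transporter at a level not seen in the other clusters, and little of the choline transporter. *Slc6a5* (chr7:49910146-49963856, plus strand) was at 776 and 759 CPM in the cervical libraries, 936, 1120 and 771 in the thoracic libraries and 742, 1151 and 736 in the lumbar/sacral libraries. The mean was 874 ± 174 CPM, and the highest of the other 20 clusters, I4, had 117. A count was seen in 324 of 329 I8 nuclei (98.5%, or 96.2% after every nucleus was thinned to 4600 counts), against 3.21% of motor neurons. The other inhibitory genes did not follow. The vesicular transporter for GABA and glycine, *Slc32a1*, averaged 32.1 ± 16.3 CPM, inside the 4.37 to 44.9 of I1 to I7, and 22.2% of nuclei had a count. *Gad1* and *Gad2*, which make GABA, averaged 7.05 and 6.73 CPM.

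The cholinergic genes were low for a cluster of cholinergic neurons. *Chat* (chr14:32408203-32465989, minus strand) was at 119 and 129.5 CPM in the cervical libraries, 46.2, 143 and 45.4 in the thoracic libraries and 86.3, 123 and 91.5 in the lumbar/sacral libraries. The mean of 97.9 ± 37.2 CPM was rank 19 of 21 clusters, above I7 (31.2) and I2 (55.0), while cluster I5 had 365. *Slc5a7* averaged 10.0 ± 4.47 CPM, the lowest of all 21 clusters, against 17.8 to 390.4 in I1 to I7. A *Chat* count was present in 167 of 329 nuclei (50.8%, thinned 36.8%) and a *Slc5a7* count in 19 (5.78%), against 58.3% and 56.9% of I1 to I7. The gene of the vesicular acetylcholine transporter was not analysed here.

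*Slc6a5* was found in nearly all I8 nuclei, in 165 of 167 nuclei with a *Chat* count (98.8%) and in 159 of 162 without (98.1%). Nuclei with both made up 50.2% of I8 (95% exact binomial interval 44.6 to 55.7), and 2.21% (I6) to 30.6% (I4) of the other interneuron clusters. *Nos1*, which makes nitric oxide, was found in 86.8% of I8 nuclei with *Chat* and 85.2% of those without, and *Slc5a7* in 7.19% and 4.32%. The mean *Nos1* level was 295 ± 44.2 CPM, close to I7 (319.9), above I2 (105) and below I1 (904). Transporters of glutamate were near 0, with *Slc17a6* at 3.48 CPM. *Slc17a8*, the vesicular transporter VGLUT3, had 28.1 and 61.7 CPM in the cervical libraries, 0, 59.2 and 0 in the thoracic libraries and 14.4, 9.95 and 18.3 in the lumbar/sacral libraries. That was a mean of 24.0 ± 24.4 CPM, against at most 2.40 in I1 to I7, and 13.4% of nuclei had a count (thinned 9.12%).

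Across genes, I8 was described against the summed I1 to I7 nuclei of the same library on the scale log2(CPM + 20), without a test, since the cluster was drawn from these same genes. A gene was counted as higher or lower where I8 was at least 1 above or below in each of the 8 libraries. Of 4500 genes with at least 50 CPM in 3 or more sums, 141 were higher (3.13%) and 225 lower (5%). The sums of I8 or those of I1 to I7 could meet this filter, and 3977 of the 4500 genes met it in I8. A gene counted as higher or lower may thus have passed only through the group where it was high. The median difference of all 4500 was -0.12. Counts within gene lists below stand beside these shares, and no list was tested. The 20 genes with the widest gap above the highest of I1 to I7 and the 15 with the widest gap below the lowest are plotted.

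**Figure D2:**
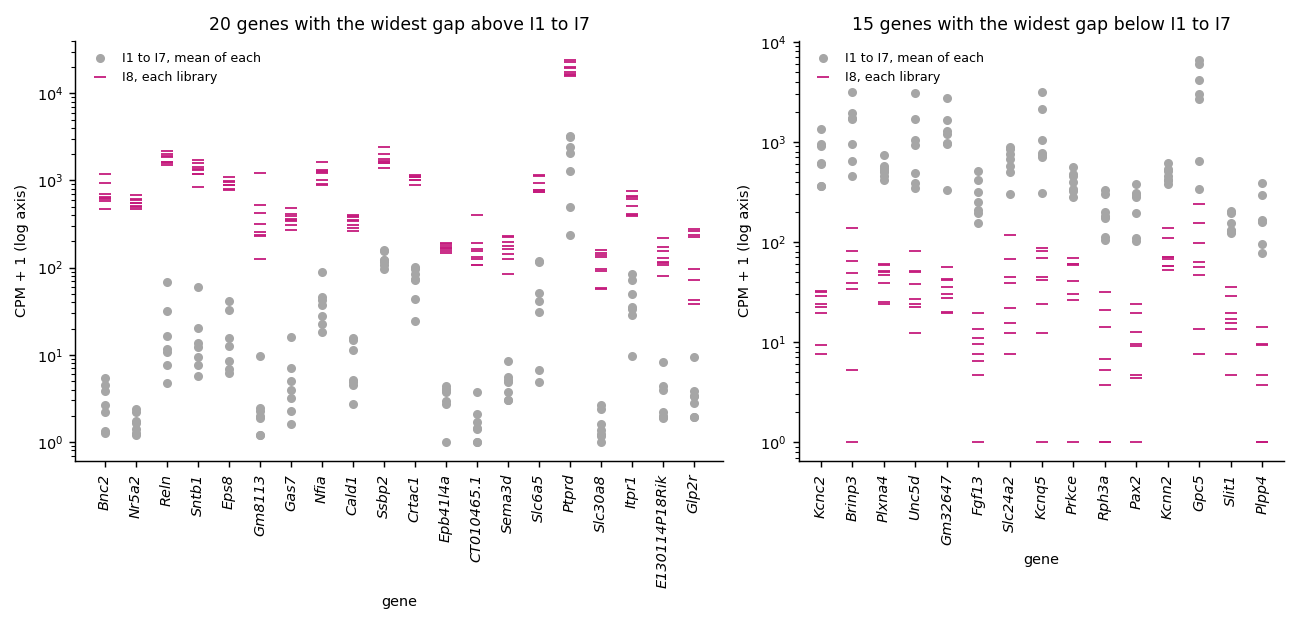
The 20 genes of widest gap above and the 15 of widest gap below I1 to I7, as CPM + 1 on a log axis, with grey points for the mean of each of I1 to I7 and bars for each of the 8 I8 libraries. *Bnc2*, *Nr5a2* and *Reln* lead the first set and *Kcnc2* the second, and the bars and points of these genes do not overlap.

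Transcription factors were among the leading genes of I8. *Bnc2*, a zinc finger factor, was at 698 and 641 CPM in the cervical libraries, 1192, 576 and 942 in the thoracic libraries and 618, 468 and 626 in the lumbar/sacral libraries. Its mean was 720.1 ± 234 CPM, while I1 to I7 averaged 0.265 to 4.49 and the highest of the other 20 clusters, V3, had 55.8. *Nr5a2*, an orphan nuclear receptor, averaged 557 ± 69.9 CPM in I8 and 0.211 to 1.38 in I1 to I7, and the highest of the other 20 clusters, V9, had 1.87. Both genes were found in most nuclei, *Bnc2* in 94.2% and *Nr5a2* in 94.8%. The log2 difference from I1 to I7 was 5.01 ± 0.44 for *Bnc2* and 4.79 ± 0.17 for *Nr5a2*.

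Factors that mark when a spinal neuron is born showed 4 of 8 passing genes higher and 0 lower (3.13 and 5% over all genes). *Nfia* averaged 1190.2 ± 247 CPM against 17.3 to 87.3 in I1 to I7, and *Nfib* 304 ± 79.8 against 1.48 to 109.8. The homeodomain genes *Zfhx3* (1889 ± 234 CPM) and *Zfhx4* (443 ± 102) were the others, and both were also found in cluster I6, at 1303 and 186. *Meis2*, which encodes a homeodomain protein, averaged 1275 CPM, and in I6 728. *Nfia* and its opposite-strand neighbour *E130114P18Rik* were both high, and reads from overlapping genes cannot be told apart unless counted by strand. The same holds for *Gas7* with *Glp2r*, *Ssbp2* with *4833422C13Rik* and *Reln* with *Gm10475*.

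Factors of the dorsal interneuron lineages were mostly low, 7 of 11 passing genes lower and 1, *Tshz1*, higher (5 and 3.13% over all genes). Only 4 of the 11 passed the filter in I8, and the rest were counted through I1 to I7 alone. *Pax2*, whose absence defines I8, was among the 7, so this count says little about the list. *Ebf1* averaged 19.1 ± 20.1 CPM against 169 to 3843 in I1 to I7, and *Pax8*, the relative of *Pax2*, 1.78 ± 3.99 against 2.33 to 205. *Ebf2*, *Ebf3*, *Tshz2* and *Tshz3* were the other lower members. *Pax8* and *Ebf2* were also near 0 in cluster I5, at 2.42 and 6.78 CPM. *Tshz1* averaged 177 ± 46.4 CPM and at most 30.6 in I1 to I7.

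Among the other leading genes, *Sntb1*, a scaffold of the dystrophin complex, averaged 1328 ± 259 CPM against at most 59.8, and *Eps8*, a regulator of actin, 909 ± 108 against at most 40.6. *Crtac1*, which encodes a secreted matrix protein, averaged 1059 ± 87.0 CPM and *Itpr1*, the inositol trisphosphate receptor, 547 ± 141. *Ptprd*, a receptor phosphatase that organises synapses, reached 19079 ± 3096 CPM, above the 233 to 3248 of I1 to I7 in each library. The zinc transporter gene *Slc30a8* was at 109.8 CPM and at most 1.64 elsewhere among the interneurons.

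Amine receptors had 3 of 10 passing genes higher and 1 lower (3.13 and 5% over all genes). *Htr2c*, a serotonin receptor, was at 2775 and 1690 CPM in the cervical libraries, 3861, 1303 and 2269 in the thoracic libraries and 3773, 2723 and 3499.7 in the lumbar/sacral libraries. It averaged 2737 ± 948 CPM, with 1381 in I7 next. *Htr2a* averaged 256 ± 72.3 CPM, less than in motor neuron cluster S3 (409.9), and the adrenergic receptor *Adra1b* 159 ± 38.6 CPM. *Chrm3*, a muscarinic receptor, averaged 6.78 ± 7.88 CPM, where I5 had 722. Of 8 peptide receptor genes *Crhr1*, the receptor of corticotropin-releasing hormone, was higher (108 ± 23.9 CPM) and 4 were lower. Only 4 of these 8 passed the filter in I8.

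Of 6 metabotropic glutamate receptor genes 3 were lower, *Grm5* at 489 ± 87.3 CPM, *Grm7* at 81.1 ± 21.7 and *Grm8* at 21.7 ± 14.5, against 4704, 2675 and 1909 in I1. Clusters I3 and I4 held less *Grm5* than I8, at 109.5 and 211 CPM. Over all genes 5% were lower and 3.13% higher. Of 16 ionotropic subunits *Grik3* was higher (506 ± 39.8 CPM) and *Gria3*, *Grik1* and *Grin3a* were lower. Of 13 GABA and glycine receptor subunits *Gabra2* and *Glra2* were lower, and *Glra1*, the adult glycine receptor subunit, averaged 483 ± 71.7 CPM against 169 to 399.

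Potassium channels were the list with the most lower genes beside guidance, 10 of 32 lower and 1, *Kcnip2*, higher (5 and 3.13% over all genes). *Kcnc2*, which encodes a channel of fast-spiking neurons, was at 28.1 and 30.8 CPM in the cervical libraries, 8.39, 21.5 and 22.7 in the thoracic libraries and 31.6, 6.63 and 18.3 in the lumbar/sacral libraries. The mean of 21 ± 9.53 CPM was the lowest of all 21 clusters, and I1 to I7 averaged 361 to 1336. *Kcnq5*, of the M current, averaged 44.2 ± 31.9 CPM against 306 to 3159.7, and *Kcnn2*, a calcium-activated channel, 76.7 ± 29.5 against 376 to 609.8. Among sodium, calcium and HCN channels 3 of 21 were lower and 0 higher.

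Mechanosensitive channels had 1 of 15 genes higher, *Piezo2* itself, and 3 lower, *Kcnk10*, *Trpc4* and *Trpc5* (3.13 and 5% over all genes). *Piezo2*, like *Reln* below, is a gene that defines I8, so these counts say little about the lists. *Piezo1*, the relative of *Piezo2*, was at 1.0 CPM and did not pass the filter. In the reelin pathway *Reln* alone of 13 genes was higher and 0 were lower. *Dab1*, the adaptor inside cells that receive reelin, averaged 811 ± 218 CPM against 134 to 3098, and the reelin receptor genes *Lrp8* and *Vldlr* 112 ± 32.1 and 33.4 ± 9.18.

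Axon guidance genes were split, 5 of 29 higher and 10 lower (3.13 and 5% over all genes). *Sema3d*, *Sema5b*, *Plxnc1*, *Epha6* and *Ephb1* were higher, with means of 166, 338, 252, 1500.4 and 859 CPM. *Plxna4*, a semaphorin receptor, *Unc5d*, a netrin receptor, and *Slit1*, a ligand of Robo receptors, were lower, at 43.3 ± 13.9, 37.5 ± 22.3 and 16.8 ± 10.2 CPM against 415 to 733, 346 to 3108 and 121 to 203. Of 21 cadherins *Cdh8* (1793 ± 332 CPM) and *Cdh12* (1961 ± 274) were higher and 3 lower. Among 13 matrix genes *Reln* was higher and 5 were lower, *Gpc5* at 84.2 ± 78.3 CPM against 336 to 6601. Of 12 neuropeptide and granin genes *Pcsk2*, a prohormone protease, was higher (835 ± 145 CPM) and *Pcsk1* and *Nxph1* were lower.

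Markers of other cells were low in I8. *Tns1* of skeletal motor neurons averaged 27.0 ± 8.46 CPM in I8 and 402 in S1, *Zeb2* of visceral motor neurons 5.57 ± 7.46 and 715 in V1, and *Prph* and *Isl1* 5.60 and 1.59. The 8 oligodendrocyte genes summed to 29.4 to 86.4 CPM in I8 libraries and 46.9 to 76.6 in I1 to I7, and the 8 astrocyte genes to 16.8 to 33.2 and 90.5 to 133.8. Of the 6 microglia genes found in the matrix the sums were 28.1 to 86.2 and 27.3 to 129 CPM. The neuronal gene *Snap25* averaged 791 ± 191 CPM. As a description, the profile of I8 over 4500 genes had the highest Pearson correlation with I4 (0.709), followed by S2 (0.707) and I6 (0.702), and the lowest with V8 (0.639). All of these clusters share libraries, and genes are not independent replicates.

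Over the 21 clusters the 5 genes with the highest Pearson correlation of mean log2(CPM + 20) with *Reln* were *Gm8113* (0.899), *Evc2* (0.885), *Gm10475* (0.884), *Asb2* (0.869) and *Gm12153* (0.866). *Gm8113* averaged 415 ± 349.5 CPM in I8 and ranged from 123 to 1225 between libraries. *Gm10475* lies within *Reln* on the other strand.

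The share of I8 among cholinergic nuclei was 2.94, 0.134 and 1.13% in the cervical libraries, 1.37, 2.24 and 0.613% in the thoracic ones and 2.78, 2.32 and 2.58% in the lumbar/sacral ones. The lumbar/sacral libraries lay close together and the rostral ones ranged widely, with cervical 1 above all others. Means were 1.40% ± 1.42, 1.41% ± 0.813 and 2.56% ± 0.233 (SD, n = 3 libraries). A difference between the 3 regions was not found (two-sided exact permutation test over 1680 assignments, p = 0.321), nor between lumbar/sacral and the rest (1.16 percentage points higher, exact p = 0.119). Without the libraries labelled cervical and thoracic replicate 2 the exact p-values were 0.2 and 0.171. The share depends on sorting as well as on the tissue, and a share of nuclei does not count cells.

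**Figure D3:**
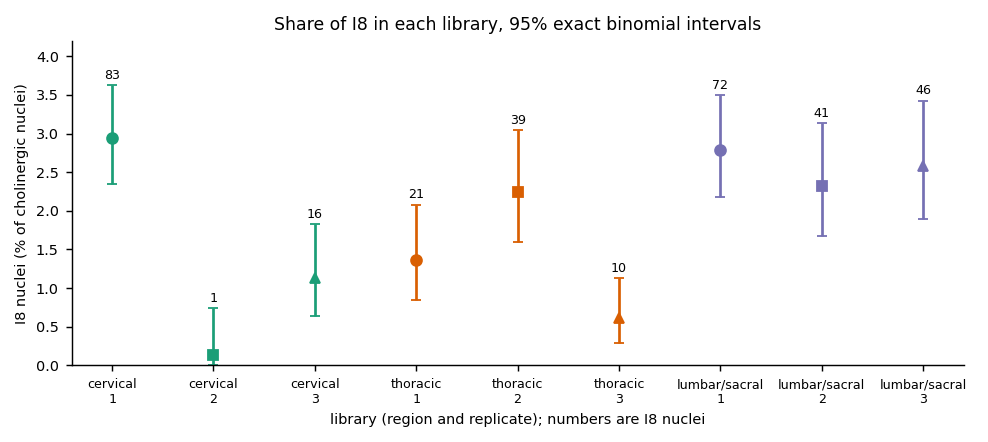
I8 nuclei as percent of the cholinergic nuclei of each of the 9 libraries, with exact binomial 95% intervals that cover counting error only and the number of I8 nuclei above each point. The 3 lumbar/sacral libraries sit between 2.32 and 2.78%, while the cervical and thoracic ones spread from 0.134 to 2.94%.

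Within I8, 14 of 3977 genes differed between lumbar/sacral and rostral (cervical and thoracic) libraries (0.352%), 11 higher (0.277%) and 3 lower (0.0754%) in lumbar/sacral (limma on log2(CPM + 20), Benjamini-Hochberg adjusted p under 0.05). For each of the 14 the 3 lumbar/sacral libraries did not overlap the 5 rostral ones. The genes were picked by this same contrast, so this describes them and adds no support. Such separation was not counted over all 3977 genes. *Rxfp2*, a relaxin family peptide receptor gene (chr5:150018675-150082184), was at 0 and 0 CPM in the cervical libraries, 12.6, 2.69 and 22.7 in the thoracic libraries and 175, 209 and 161 in the lumbar/sacral libraries. The rostral I8 libraries were all far below the lumbar/sacral ones, and in I1 to I7 the highest library had 1.22 CPM. The log2 difference was 3.0 (SE 0.29, limma adjusted p = 0.000474), with a count in 59.3% of lumbar/sacral, 7.36% of thoracic and 0% of cervical I8 nuclei as means over libraries. The cervical sums at 0 allow up to 4.95 and 18.5 CPM.

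*Pcdh15*, a protocadherin known from the tip links of hair cells, was the leading gene in the other direction. It was at 647 and 617 CPM in the cervical libraries, 701, 522 and 533 in the thoracic libraries and 158, 143 and 172 in the lumbar/sacral libraries, with a log2 difference of -1.82 (SE 0.16, limma adjusted p = 0.000344). *Plce1*, a phospholipase C, and *Plppr1*, of a family of neuronal membrane proteins, were the other lower genes, at -0.87 and -0.94 (limma adjusted p = 0.0224 and 0.0397).

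The higher genes included a sorting receptor and a pair of guidance receptors. *Sorcs1*, a sorting receptor, was at 225 and 284 CPM in the cervical libraries, 155, 83.5 and 159 in the thoracic libraries and 1231, 872 and 758 in the lumbar/sacral libraries. Its log2 difference was 2.25 (SE 0.23, limma adjusted p = 0.000474). *Robo1* and *Robo2*, receptors of Slit proteins, were called, 2 of 22 guidance genes tested (0.352% over all genes). The 3 lumbar/sacral libraries held 1109.9, 1035 and 1025 CPM of *Robo1*, and the rostral ones 272 to 474. Differences were 1.34 for *Robo1* and 1.08 for *Robo2* (limma adjusted p = 0.00360 and 0.0146).

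*Luzp2*, the channel genes *Trpm3* and *Kcnh8*, the protease gene *Pappa*, the transmembrane collagen gene *Col25a1*, the BMP receptor gene *Bmpr1b* and the cadherin gene *Cdh9* were also higher. *Kcnh8* was at 6.60 and 6.17 CPM in the cervical libraries, 0, 5.38 and 0 in the thoracic libraries and 115, 73.0 and 150.1 in the lumbar/sacral libraries, close to absent in rostral I8. *Col25a1* was at 24.8 and 18.5 CPM in the cervical libraries, 46.2, 10.8 and 0 in the thoracic libraries and 216, 106 and 128 in the lumbar/sacral libraries. The log2 differences of these 7 genes ran from 0.90 for *Bmpr1b* to 2.43 for *Kcnh8*, with limma adjusted p-values from 0.00350 to 0.0474. The genes that define I8 were not among the 14, with log2 differences of -0.06 for *Reln* (limma adjusted p = 0.954), -0.22 for *Piezo2* (0.829) and 0.42 for *Mpped2* (0.754). Nor were the transmitter genes *Slc6a5* (0.02, limma adjusted p = 0.994) and *Chat* (0.07, 0.976).

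**Figure D4:**
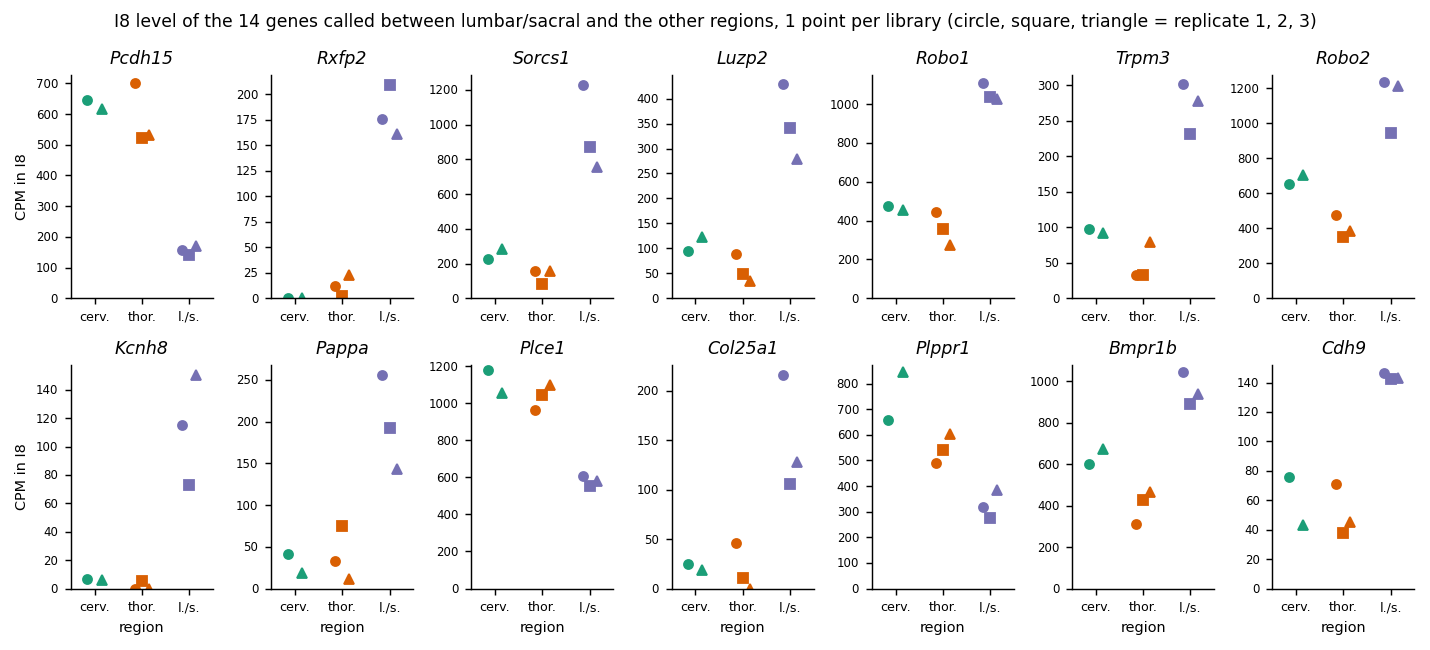
I8 level in CPM (linear axes from 0) of the 14 genes called between lumbar/sacral (l./s.) and rostral libraries, with 1 point per library (circle, square and triangle for replicates 1, 2 and 3). In every panel the 3 purple lumbar/sacral points lie apart from the 2 cervical and 3 thoracic ones, in genes picked by this same contrast.

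Pools of mice and the *Malat1* split were checked against these calls. With the pool as a replicate block 33 genes were called, all 14 among them. With a term for the *Malat1* split 19 genes were called, all 14 among them. Differences were also taken within the *Malat1*-low libraries (1 lumbar/sacral against 3 rostral) and within the *Malat1*-high ones (2 against 2). Their direction was fixed beforehand, since the libraries of the 14 did not overlap, so only the sizes are informative. These were, for example, 3.05 and 2.71 for *Rxfp2* and -1.92 and -1.63 for *Pcdh15*. The count rested on few libraries. It was 8, 6, 4, 6 and 5 without cervical 1, cervical 3 and lumbar/sacral 1, 2 and 3, and 30, with all 14 among them, without the library labelled thoracic replicate 2. With all rostral libraries as 1 group it was 12, 11 of the 14 among them.

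The regional difference was then set against that of I1 to I7 in the same libraries, a test of the difference between the effects. The sum of I1 to I7 also changes with its mix of clusters, since I5 and I6 together made up 24.4 to 32% of its nuclei in the libraries labelled cervical or thoracic and 12.3 to 18.0% in the lumbar/sacral ones. Of 4500 genes 54 differed (1.2%). The lumbar/sacral minus rostral difference of I8 lay above that of I1 to I7 in 38 (0.844%) and below it in 16 (0.356%). Such a call can come from a change in I1 to I7 alone. Of the 14 genes above 12 were among them, and *Plce1* and *Bmpr1b* were not (limma adjusted p = 0.432 and 0.443). *Sorcs1* and *Col25a1* ran opposite ways. In I1 to I7 *Sorcs1* was at 1078 and 972 CPM in the cervical libraries, 977, 689 and 701 in the thoracic libraries and 549, 475 and 489.6 in the lumbar/sacral libraries, lower in lumbar/sacral where I8 was higher. The log2 difference between the effects was 3.05 (SE 0.19, limma adjusted p = 5.28e-07). In I1 to I7 *Col25a1* was 293 and 218 CPM in the cervical libraries, 326, 154 and 273 in the thoracic libraries and 91.4, 66.5 and 100.3 in the lumbar/sacral libraries, again opposite to I8, and the difference was 3.46 (SE 0.30, limma adjusted p = 1.93e-05).

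*Ldb2*, a partner of LIM homeodomain factors, was the gene of lowest p that was not among the 14. I8 held 417 to 480.2 CPM in lumbar/sacral and 183 to 407 in rostral libraries, and I1 to I7 160.2 to 201 and 294 to 412, a difference of effects of 1.72 (SE 0.18, limma adjusted p = 5.84e-05). Cadherins held 6 of the 54, of 21 tested. The I8 difference lay above that of I1 to I7 for *Cdh6*, *Cdh9*, *Cdh18* and *Pcdh19*, and below it for *Pcdh15* and *Cdh13*. For *Cdh18* it was 0.007 in I8 and -0.67 in I1 to I7, and for *Cdh6* 0.65 and -0.89. Potassium channels held 3 of 32, with I8 above for *Kcnh7* and *Kcnh8* and below for *Kcnd3*. Over all genes the share was 1.2%. *Piezo2* (-0.63, limma adjusted p = 0.022) and *Mpped2* (0.87, limma adjusted p = 0.0348) also passed, but not with I1 to I7 at 1 fixed cluster mix (-0.45, limma adjusted p = 0.117, and 0.74, limma adjusted p = 0.079), and neither was called within I8. At that fixed mix 43 genes were called, 38 of the 54 among them, with 2.61 for *Sorcs1* (limma adjusted p = 1.97e-06), 2.77 for *Col25a1* (9.64e-05) and 1.09 for *Ldb2* (0.00129). *Cdh18* was not called there (limma adjusted p = 0.118). Without 1 library the 54 became 28, 22, 10, 10 and 19 (cervical 1, cervical 3, lumbar/sacral 1, 2 and 3), and 97 and 86 without thoracic 2 and 3.

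Cervical against thoracic I8 gave 0 calls among 3977 genes (0%) with limma, and 361 genes at an unadjusted p under 0.05. Without the library labelled thoracic replicate 2, an alternative in which 2 cervical and 2 thoracic libraries remained, 20 genes were called, 14 higher and 6 lower in cervical. *Il1rapl2*, which encodes a synaptic adhesion protein of the interleukin receptor family, was at 830.3 and 1129 CPM in the cervical libraries, 50.4, 584 and 45.4 in the thoracic libraries and 1403, 1118 and 1025 in the lumbar/sacral libraries. It was low in thoracic 1 and 3 and not in the library labelled thoracic replicate 2, and without that library the log2 difference was 3.87 (SE 0.23, limma adjusted p = 4.38e-06). *Zfp804b*, a zinc finger gene, was at 1089.5 and 1554 CPM in the cervical libraries, 50.4, 1457 and 90.8 in the thoracic libraries and 446, 282 and 487 in the lumbar/sacral libraries, with a log2 difference of 3.90 (SE 0.30, limma adjusted p = 4.75e-05) without that library.

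Signalling genes *Pde4d* (1.84, limma adjusted p = 0.00149), *Sema3a* (1.88, 0.00909) and *Asic2* (1.31, 0.0342) were likewise higher in cervical 1 and 3 than in thoracic 1 and 3. *Frmd3* and *Sdk1* were lower there, as was *Hoxc5* (-1.55, limma adjusted p = 0.0342). *Hoxc5* was among the genes by which the library left out went against its label, so its call is not a separate result. In the library labelled thoracic replicate 2 *Hoxc5* was 10.8 CPM, below both cervical libraries (21.5 and 12.3), and *Pde4d* was 3373, between them (3003 and 3658). With pools as a block and all libraries 1 gene was called, *Il1rapl2* (limma adjusted p = 0.0490).

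Male and female pools were compared over 5 libraries with region as a covariate, which leaves 1 degree of freedom for the spread. Cervical 3 had no male partner among them. The pool difference thus rests on thoracic 2 against thoracic 3 and lumbar/sacral 2 against lumbar/sacral 3. Of 3449 genes 109 differed (3.16%), 30 higher and 79 lower in the male pool. Without the filter on low values 0 were called by limma (891 at an unadjusted p under 0.05), *Xist* included (limma adjusted p = 0.0813). *Xist*, the RNA of the inactive X chromosome, was 5.38 and 0 CPM in the male and 306 to 574 in the female libraries (-3.97, SE 0.28, limma adjusted p = 4.57e-42). With 1 pool of each sex, sex and pool cannot be told apart. Thoracic 2 and 3 and lumbar/sacral 2 and 3 were all *Malat1*-high, and cervical 3 was low. *Malat1*, on which that split was drawn, was among the 10 genes of lowest p. It was at 17099.6 to 18018 CPM in the low and 53263 to 76634 in the high libraries. *Gm26905*, *Snhg11*, *Gm45321* and *4930555F03Rik*, also of those 10, separated the same way over all 8 libraries. Such separation was not counted over all genes tested. The part of the *Malat1* level in the calls was not tested. The fit also rests on the library labelled thoracic replicate 2 and could not be run without it. *Zfp804b* was 1457 CPM there and 90.8 in thoracic 3, but 282 in the male and 487 in the female lumbar/sacral library. *Pde4d* was 3373 and 828 CPM in those thoracic libraries, and 1503 and 1508 in the lumbar/sacral ones. *Xist* kept its direction in both regions. The part of that library's label in the calls was not tested. *Htr2c* was 1303 CPM in the male and 2269 in the female thoracic library, and 2723 and 3499.7 in the lumbar/sacral ones (-0.58, limma adjusted p = 0.00924). It was lower in the male library of both regions, while across regions the male and female values overlap. Cervical 3 had 1690 CPM. Scaled by the median of ratios, 2 genes were higher and 32 lower.

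I8 was not uniform from nucleus to nucleus. Among 1018 genes with a mean count of at least 1, the excess of variance over a Poisson count, per squared mean, was largest for *Gabrg3*, a GABA receptor subunit, while *Reln* and *Piezo2* ranked 453 and 413. Several of the most variable genes differed between libraries. *Rreb1*, a zinc finger factor, had a count in 56.6 and 81.2% of nuclei in the cervical libraries, 4.76, 89.7 and 10.0 in the thoracic libraries and 5.56, 17.1 and 10.9 in the lumbar/sacral libraries. It was frequent in the cervical libraries and in the library labelled thoracic replicate 2, and rare in the other 5. After thinning to 4600 counts the same shares were 48.2 and 75% in the cervical libraries, 4.76, 71.8 and 0 in the thoracic libraries and 4.92, 14.6 and 6.52 in the lumbar/sacral libraries. *Gabrg3* was spread alike, with a count in 41.0 and 68.8% of nuclei in the cervical libraries, 0, 46.2 and 20 in the thoracic libraries and 6.94, 7.32 and 8.70 in the lumbar/sacral libraries. I1 to I7 averaged 1.32 to 12.8 CPM of *Rreb1*.

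Other variable genes stood out in different libraries. *Arhgap6*, a GTPase activator, had a count in 72.3 and 62.5% of nuclei in the cervical libraries, 95.2, 66.7 and 90 in the thoracic libraries and 22.2, 17.1 and 37.0 in the lumbar/sacral libraries, highest in thoracic 1 and 3. *Nkain3* was found in 100% of the nuclei of those 2 libraries and in 52.2 to 87.5% of the nuclei of the others. *Il1rapl2* had a count in 28.6 and 30% of nuclei in thoracic 1 and 3, 46.2 to 56.3% in cervical 1 and 3 and the library labelled thoracic replicate 2, and 69.6 to 80.5% in the lumbar/sacral libraries. *Pcdh15* was seen in 33.3 to 39.0% of lumbar/sacral and 85.5 to 95.2% of rostral nuclei per library. No subclusters of I8 were drawn, and these shares were not tested.

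**Figure D5:**
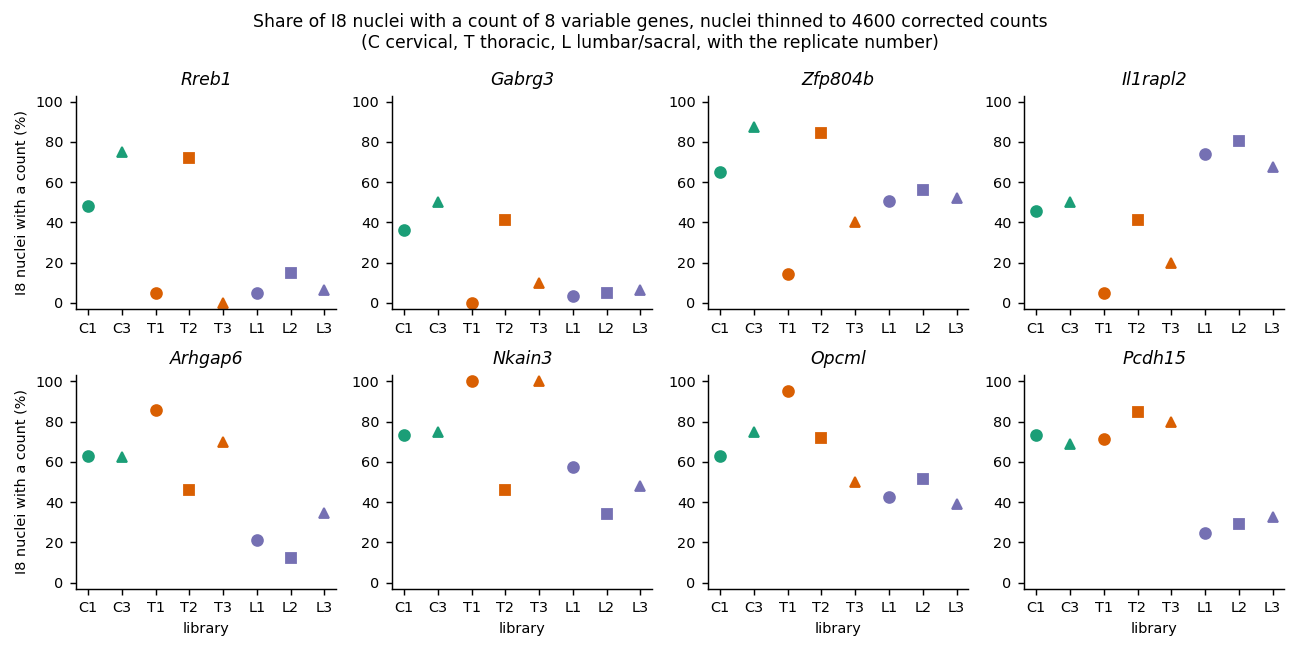
Percent of I8 nuclei with a count of 8 variable genes in each of 8 libraries, after thinning each nucleus to 4600 corrected counts (11 shallower nuclei, all in lumbar/sacral 1, left out). *Rreb1* and *Gabrg3* are frequent in C1, C3 and T2. *Arhgap6* and *Nkain3* are highest in T1 and T3 and also frequent in C1 and C3. *Pcdh15* is lowest in L1 to L3.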

How the data were processed

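Nuclei were aligned and counted by the authors with Cell Ranger (3.1.0) on mm10, per the labels, and clustered with Seurat. The deposited matrix (21457 genes) holds scores in the form of whole numbers: counts corrected by the authors with the SCTransform model, not raw counts, so their totals do not give sequencing depth, and no count model was fitted (a count test had been planned in case the values were raw). Other deposited columns gave, per the labels, cluster, region and pool of each nucleus. I8 nuclei were matched by barcode, doublets marked by Scrublet (scanpy 1.11.5) on the corrected counts were kept, and libraries with at least 10 I8 nuclei were used. Corrected counts were summed per library, scaled to CPM and tested as log2(CPM + 20) with limma (3.58.1, trend, R 4.3.3) with Benjamini-Hochberg adjustment, leaving out genes that did not reach 50 CPM in 3 sums. The script was tested on simulated data. Shares were compared with exact permutation tests (scipy 1.17.1), and intervals are exact binomial and cover counting error only. A sum of 0 was given a limit of 3 counts.

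Genes were named from fixed lists, and for I8 against I1 to I7 as the 20 widest gaps above and the 15 below, for region and pool contrasts as the 10 of lowest p and up to 20 past the threshold. Genes called between cervical and thoracic libraries without thoracic replicate 2 were named after their values were seen. The members and lists were chosen with earlier results of these data known. Same-numbered libraries came from the same pool of mice, and the pool was used as a replicate block in an alternative. Their deviations from the region means correlated at 0.0318 to 0.574 (7 pairs), against -0.417 to 0.0469 for other pairs (14 pairs). Deviations cancel within a region, so the values of the other pairs partly follow from the first and are not separate. P-values measure the spread between pooled libraries. Other alternatives were pseudocounts of 5 and 50, other filters, scaling by the median of ratios, thinning, removal of doublets and of each library. Leaving out both libraries that went against their labels, the block without thoracic replicate 2, a term for the *Malat1* split, all rostral libraries as 1 group, and I1 to I7 at the cluster mix of all libraries together were chosen after seeing the data.
A few genes are not reported here.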

Additional observations from a re-analysis of the deposited data

Results flagged for a closer look

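In 4 of 42 genes tested 1 I8 library stood apart from the other 7 by Dixon's criterion (critical value 0.526 for 8 libraries), which chance alone meets in about 1 of 20. *Slc5a7* was 0 CPM in thoracic 3, where 3 counts make 34.0 CPM, and 8.25 to 14.6 in the others. *Prkce*, a protein kinase C, was also 0 there, against 25.2 to 67.8. *CT010465.1* was 397 CPM there and 105 to 191 elsewhere. *Slc32a1* was 0 CPM in cervical 3, where 3 counts make 18.5 CPM, and 25.6 to 49.8 in the others. Thoracic 3 and cervical 3 held 10 and 16 I8 nuclei.

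The regional difference (lumbar/sacral minus rostral, log2) of I8 departed from that of I1 to I7 by a test of the difference itself in 54 genes. The 10 of lowest p, with the I8 difference minus that of I1 to I7, were *Sorcs1* (3.05), *Col25a1* (3.46), *Rxfp2* (3.0), *Luzp2* (1.89), *Pcdh15* (-1.40), *Kcnh8* (2.59), *Ldb2* (1.72), *Robo2* (1.34), *Robo1* (1.25) and *Hs3st4* (1.55), which encodes a heparan sulfate sulfotransferase.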

How the results depend on the processing

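Of 14 genes called between lumbar/sacral and rostral I8, *Pcdh15* and *Robo1* were called in all 18 settings, and *Rxfp2*, *Sorcs1* and *Luzp2* in the 14, 17 and 17 settings whose filter they passed. The count was 9 with at least 100 CPM in every sum, 8 with a pseudocount of 5, 33 with the replicate block, and 33 with the block and without the library labelled thoracic replicate 2. Leaving out 1 library gave 4 (without lumbar/sacral 1) to 30 (without thoracic 2). Cervical against thoracic gave 1 call with the replicate block and 0 to 20 without 1 library, 20 without thoracic 2, and scaling by the median of ratios moved the median of all genes from 0.03 to 0.15. The 109 calls between pools became 33 with at least 100 CPM in every sum, 0 without a filter (limma, 891 genes at an unadjusted p under 0.05) and 34 with the median of ratios, and were 110 without cervical 3. No paired analysis was possible for pools because pool and replicate number are the same. The 54 genes whose regional difference departed from I1 to I7 became 12 without a filter, and 10 (without lumbar/sacral 1 or 2) to 97 (without thoracic 2) without 1 library, and of the 20 of lowest p *Pcdh15*, *Ldb2* and *Robo2* were called in all 19 settings, and 9, these included, wherever they passed the filter. The replicate block changed no other call by over 1.5 times. The cause was not tested for any of these. Counts of genes higher (95 to 189) and lower (150 to 260) than in I1 to I7 stayed within 1.5 times of 141 and 225 in the settings run. No setting passed the threshold for the share by region, with exact p from 0.0536 to 0.571 for lumbar/sacral against the rest. None of the 14, 10, 10 and 20 genes followed through the settings of the 4 contrasts reversed. The number of nuclei, 10 in thoracic 3 and 16 in cervical 3, limits low genes most.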
